A study of Mus with 6 samples.

Results

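The genes described here are 10 components of the presynaptic active zone: the giant scaffold genes Bsn and Pclo, the RIM genes Rims1 and Rims2, the ELKS genes Erc1 and Erc2, the liprin gene Ppfia2, and the Munc13 genes Unc13a, Unc13b and Unc13c. They were taken by gene name from a deposited table of 54532 genes, each name matched 1 row, and all 10 were among the 13087 genes with a mean level of at least 1 FPKM that were tested. FPKM is fragments per kilobase of gene, scaled to library size. RNA-seq was done on basolateral amygdala of mice labelled female, with 3 libraries of wild-type mice (WT) and 3 of Cntnap4 knockout mice (KO), numbered 1 to 3 in each group. Cntnap4 encodes a neurexin-related membrane protein of neurons. The labels name no strain, age, treatment or knockout allele, so it is not known whether the deletion reaches all cells, and they do not say that each library is a separate animal. The p-values therefore measure the spread between these libraries, which may be technical.

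The active zone is the patch of presynaptic membrane where synaptic vesicles dock, are made ready and fuse. Bassoon and Piccolo, the products of Bsn and Pclo, span it as very large scaffolds. RIM proteins tether calcium channels and Rab3-bearing vesicles and recruit Munc13, which readies vesicles by helping the SNARE proteins to assemble. ELKS proteins bind RIM and Bassoon, and liprin-alpha links this scaffold to receptor phosphatases of the LAR type. In the basolateral amygdala this machinery serves the terminals of local and incoming excitatory fibres and of inhibitory neurons.

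The knockout label was checked first on Cntnap4 itself. Its level was 3.53, 3.90 and 2.15 FPKM in WT libraries 1 to 3. In KO libraries 1 to 3 it was 1.08, 1.19 and 1.28 FPKM. The groups did not overlap, and the ratio of means was 0.370. With a limma adjusted p of 0.302, Cntnap4 itself did not pass the threshold used below. A gene that did not pass in this fit is therefore not shown to be unchanged. The libraries held 15933029 to 17789798 reads, recovered as described under processing, and log2 values of any pair of libraries correlated across the tested genes at 0.938 to 0.983. The defining marker genes of basolateral amygdala projection neurons were present in all libraries, with Slc17a7, the vesicular glutamate transporter, at 200.8 to 364 FPKM and Rspo2 at 2.03 to 4.12 FPKM. Neurod6, a transcription factor of the same list, was at 7.06, 18.3 and 17.0 FPKM in WT1 to WT3 and 27.1, 34.1 and 28.8 FPKM in KO1 to KO3, without overlap (limma adjusted p = 0.302). Some libraries stood apart in their cell markers. The 8 genes of the projection neuron list summed to 725 to 831 FPKM in WT and 708 to 935 FPKM in KO. Their median deviation from each gene's own mean of log2 values was -0.48 in WT3 and -0.16 in KO3, against 0.04 to 0.25 in the others. The summed level of 8 striatal markers was 860 FPKM in WT3 and 362 FPKM in KO3, against 59.9 to 212 FPKM in the others, and that of 6 oligodendrocyte markers was 227 FPKM in WT1 against 445 to 673 FPKM in the others. The 5 meningeal markers summed to 56.5 FPKM in WT1 and to 10.1 to 28.9 FPKM in the others. The summed level of 5 central amygdala markers was highest in WT1 and WT2, but not every marker followed it. Crh of that list was lowest in WT1 (3.32 FPKM) and highest in WT2 (9.03 FPKM).

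None of the 10 genes passed the threshold of an adjusted p of 0.05 in the comparison of KO with WT (limma, Benjamini-Hochberg adjustment over all 13087 genes; smallest adjusted p = 0.302). In that fit 1 gene passed, or 0.00764% of those tested, and it was neither among the 10 nor Cntnap4. With the replicate number as a block, 0 passed. Of the 10 genes, 3 had groups that did not overlap. Pclo and Rims2 lay higher in all 3 KO libraries than in all 3 WT libraries, as did 11.9% of all tested genes, and Unc13c lay lower, as did 10.1%. The unadjusted p was under 0.05 for these 3 genes, against 14.3% of tested genes (7.05% higher and 7.25% lower). The groups overlapped for Bsn, Rims1, Unc13a, Unc13b, Erc1, Erc2 and Ppfia2.

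**Figure D1:**
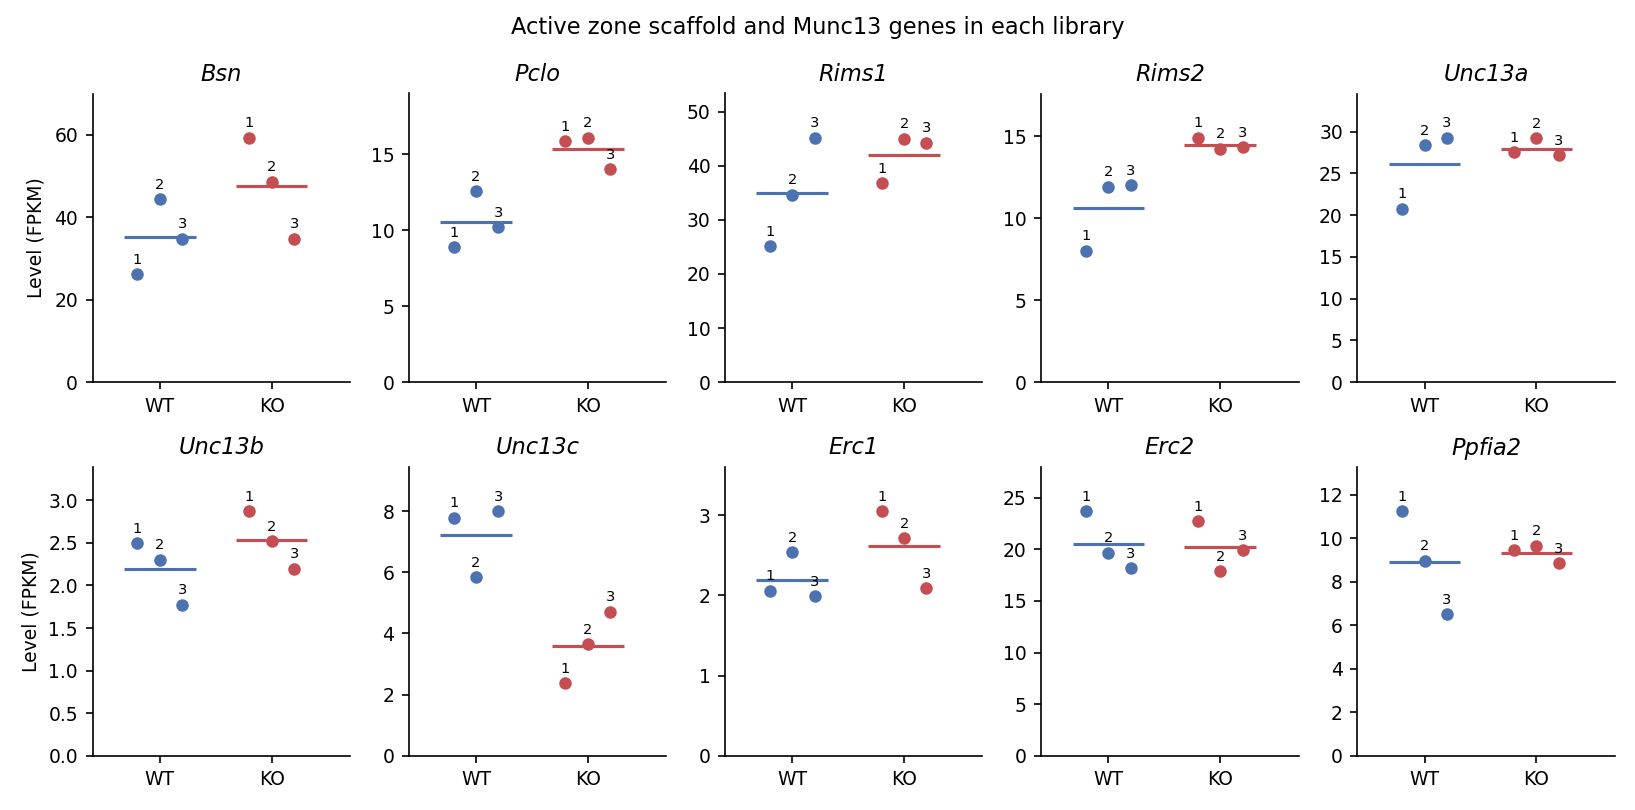
Level of each of the 10 genes (y axis, FPKM, starting at 0) in the WT and KO libraries; each point is 1 library with its replicate number and each line is the group mean. The KO points of Pclo and Rims2 lie above all WT points, and those of Unc13c lie below, at 2.37 to 4.71 FPKM against 5.83 to 7.999 FPKM.

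FPKM is scaled per length, so levels were set beside each other between genes, without removal of the trend with gene length described below. In WT, Bsn (35.2 ± 9.12 FPKM, SD, n = 3) and Rims1 (35.0 ± 10.1) were highest, followed by Unc13a (26.1 ± 4.67) and Erc2 (20.5 ± 2.86). Rims2 (10.6 ± 2.27), Pclo (10.6 ± 1.87), Ppfia2 (8.91 ± 2.37) and Unc13c (7.20 ± 1.19) formed a middle tier, and Erc1 (2.20 ± 0.30) and Unc13b (2.19 ± 0.37) were lowest. Neighbours in this order had overlapping ranges in WT except at 2 steps, between Erc2 and Rims2 and between Unc13c and Erc1. In KO the order was the same except that Pclo stood above Rims2, and the overlapping neighbours were Bsn with Rims1, Pclo with Rims2, Unc13c with Erc1 and Erc1 with Unc13b. There Unc13c was close to the lowest genes. Its range of 2.37 to 4.71 FPKM overlapped that of Erc1, 2.09 to 3.05 FPKM, which it did not in WT. Across all tested genes, Bsn and Rims1 stood above 91.5% and 90.7% of genes in mean level, and Unc13b and Erc1 above 20.1% and 20.6%.

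Of the giant scaffolds, Pclo showed the clearer separation. The gene (ENSMUSG00000061601) lies on chromosome 5 from 14514918 to 14863459 on the plus strand of GRCm38. Its level was 8.88, 12.6 and 10.2 FPKM in WT1 to WT3 and 15.9, 16.1 and 14.0 FPKM in KO1 to KO3. The lowest KO library was above the highest WT library, and the ratio of means was 1.45. On the log2(FPKM + 1) scale used for all fold changes here, KO exceeded WT by 0.51 (SE 0.14, limma adjusted p = 0.302). Between libraries of the same number the log2 difference was 0.77, 0.34 and 0.42 for numbers 1 to 3. Between 3732 and 6276 reads per library stood behind the gene.

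Bassoon, the partner scaffold of Piccolo, was more variable. Bsn (ENSMUSG00000032589, chromosome 9 from 108096022 to 108190384, minus strand) was at 26.2, 44.4 and 34.8 FPKM in WT1 to WT3 and at 59.3, 48.6 and 34.8 FPKM in KO1 to KO3. The KO3 value was within the WT range, and WT3 and KO3 had nearly the same level. The log2 fold change of 0.43 (SE 0.24, limma adjusted p = 0.443) had a 95% interval of -0.15 to 1.00, and it was 0.24 without WT1 and 0.25 without KO1. Bsn made up 76.6% ± 1.73 of the summed FPKM of Bsn and Pclo in WT and 75.1% ± 3.82 in KO. That share differed by less than the spread between libraries (exact two-sided permutation test, p = 0.7; n = 3 per group).

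The RIM genes encode the hub that binds Rab3, Munc13 and calcium channels. Rims2 (ENSMUSG00000037386, chromosome 15 from 39198261 to 39684372, plus strand) was at 8.03, 11.9 and 11.99 FPKM in WT1 to WT3 and at 14.9, 14.2 and 14.3 FPKM in KO1 to KO3. The KO values were close together, with a coefficient of variation of 2.60% against 21.3% in WT, and all lay above WT. This gave a log2 fold change of 0.43 (SE 0.15, limma adjusted p = 0.318), which was 0.26 without WT1, its lowest library. Rims1 (ENSMUSG00000041670, chromosome 1 from 22286251 to 22805994, minus strand) was at 25.1, 34.6 and 45.2 FPKM in WT and at 36.8, 45.0 and 44.3 FPKM in KO. Its highest value was in WT3 and its groups overlapped, with a log2 fold change of 0.29 (95% interval -0.20 to 0.78, limma adjusted p = 0.526) that was 0.08 without WT1 and 0.49 without WT3. Rims1 held 76.4% ± 2.39 of the summed RIM FPKM in WT and 74.2% ± 2.68 in KO, a difference within the spread of the libraries (exact permutation p = 0.5).

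Munc13 proteins prime vesicles, and each of the 3 genes gives a form with its own distribution: Unc13a encodes Munc13-1, the main form of forebrain excitatory synapses, Unc13b encodes Munc13-2, and Unc13c encodes Munc13-3, best known from cerebellar granule cells. Unc13c (ENSMUSG00000062151) lies on chromosome 9 from 73479422 to 73968966 on the minus strand. Its level was 7.78, 5.83 and 7.999 FPKM in WT1 to WT3 and 2.37, 3.65 and 4.71 FPKM in KO1 to KO3. All KO libraries were below all WT libraries, and the ratio of means was 0.497. The log2 fold change was -0.86 (SE 0.21, 95% interval -1.36 to -0.37), and with a limma adjusted p of 0.302 it did not pass. Libraries of the same number differed by -1.38, -0.55 and -0.66 on the log2 scale. Behind these values stood 822 to 1280 reads per WT library and 342 to 683 per KO library. Over 18 alternative analyses the log2 fold change ranged from -1.05 to -0.66 and the adjusted p from 0.108 to 0.684.

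The groups overlapped for the other Munc13 genes. Unc13a (ENSMUSG00000034799, chromosome 8 from 71624417 to 71671757, minus strand) was at 20.8, 28.3 and 29.3 FPKM in WT and 27.5, 29.2 and 27.1 FPKM in KO. The KO values lay between the WT values, and the log2 fold change of 0.11 (95% interval -0.23 to 0.44, limma adjusted p = 0.726) became -0.04 without WT1. Its end overlaps Colgalt1 on the other strand, so reads from the shared stretch are uncertain. Unc13b (ENSMUSG00000028456, chromosome 4 from 43058953 to 43264871, plus strand) was at 2.50, 2.30 and 1.78 FPKM in WT and 2.87, 2.52 and 2.20 FPKM in KO. KO3 lay below WT1 and WT2, so the groups overlapped (log2 fold change 0.15, 95% interval -0.17 to 0.47, limma adjusted p = 0.622).

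A share within a library does not depend on the scaling between libraries, but it can carry the trend with gene length described below. Unc13c, Unc13a and Unc13b are 8796, 12623 and 22746 bases long, and the shares given here are without removal of that trend. Unc13c made up 25.1%, 16.0% and 20.5% of the summed Munc13 FPKM in WT1 to WT3 and 7.22%, 10.3% and 13.8% in KO1 to KO3. The KO shares were all below the WT shares, with a difference in means of -10.05 percentage points (exact two-sided permutation p = 0.1, the smallest that 3 against 3 libraries can give; 0.3 adjusted over the 6 shares tested). The share of Unc13a was 73.2% ± 5.62 in WT and 82.1% ± 2.19 in KO. Since the 3 shares sum to a whole, this is the counterpart of the Unc13c share and not a separate result; the level of Unc13a overlapped between the groups. Unc13b held 6.30% ± 1.75 and 7.45% ± 1.19, which overlapped (exact permutation p = 0.4). The level of Unc13c was 2.53 to 4.50 times that of Unc13b in the WT libraries, and 0.823, 1.45 and 2.14 times in KO1 to KO3, so that in KO1 it was the lowest of the Munc13 genes.

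**Figure D2:**
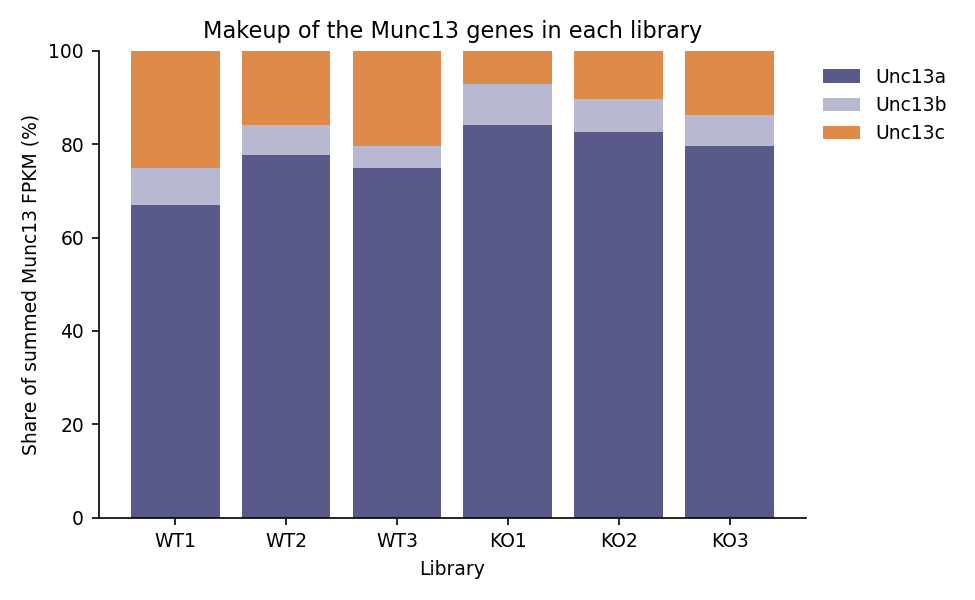
Share of Unc13a, Unc13b and Unc13c (y axis, percent of their summed FPKM) in each of the 6 libraries (x axis); no error is drawn since each bar is 1 library. The Unc13c segment spans 16.0% to 25.1% in WT and 7.22% to 13.8% in KO.

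Both ELKS genes had overlapping groups. Erc2, which encodes CAST, the ELKS protein of brain active zones, was at 23.7, 19.7 and 18.2 FPKM in WT and 22.7, 17.9 and 20.0 FPKM in KO. The ranges nearly coincided, with a log2 fold change of -0.02 (95% interval -0.34 to 0.30, limma adjusted p = 0.954). Erc1, the more broadly expressed ELKS gene, was at 2.06, 2.54 and 1.99 FPKM in WT and 3.05, 2.71 and 2.09 FPKM in KO, with overlap through KO3 (log2 fold change 0.17, 95% interval -0.16 to 0.51; 0.09 without KO1 and 0.28 without KO3). Erc2 was 6.60 to 11.5 times the level of Erc1 in the 6 libraries. Erc1 held 9.76% ± 1.72 of the summed ELKS FPKM in WT and 11.5% ± 1.86 in KO (exact permutation p = 0.3). Erc2 (ENSMUSG00000040640) lies on chromosome 14 from 27622428 to 28478537, the longest genomic span of the 10 genes at 856 kb, and Erc1 (ENSMUSG00000030172) on chromosome 6 from 119570796 to 119848167.

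Ppfia2, the liprin-alpha2 gene (ENSMUSG00000053825, chromosome 10 from 106470339 to 106935952, plus strand), was at 11.3, 8.97 and 6.52 FPKM in WT and 9.46, 9.66 and 8.86 FPKM in KO. WT1 was the highest of the 6 libraries and WT3 the lowest, and the KO values lay between them. The log2 fold change was 0.09 (95% interval -0.33 to 0.50, limma adjusted p = 0.829), and it was -0.10 without WT3.

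**Figure D3:**
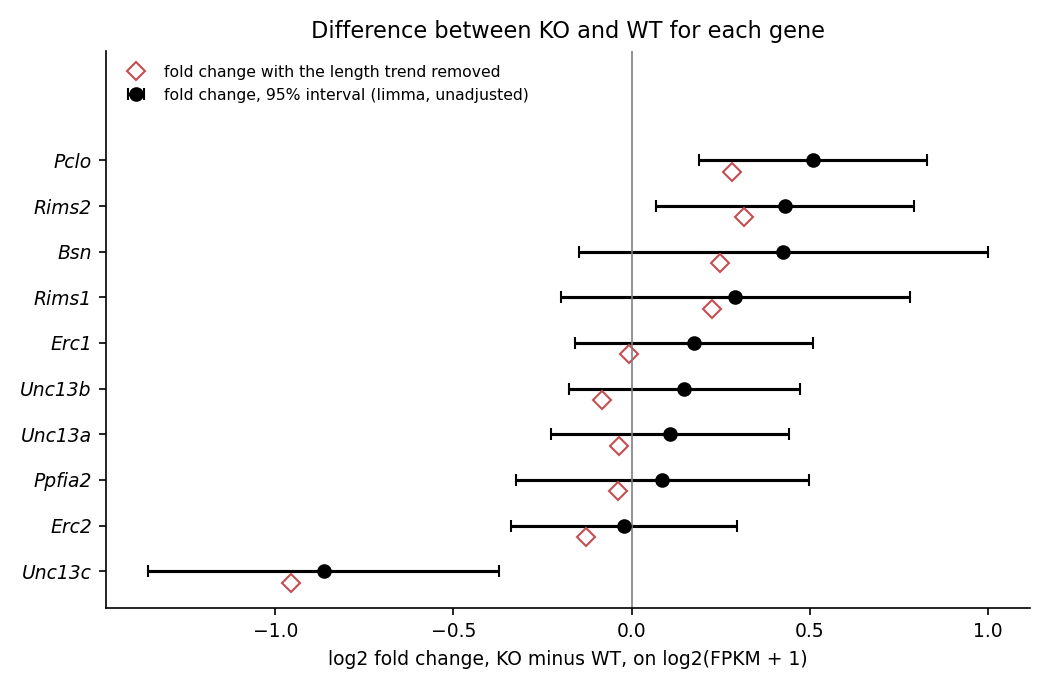
Log2 fold change of each gene, KO minus WT, on the log2(FPKM + 1) scale (x axis). Filled points are the limma estimates with unadjusted 95% intervals and open diamonds are the estimates after the trend with gene length was removed; the intervals of Pclo, Rims2 and Unc13c do not include 0, and with the trend removed Pclo goes from 0.51 to 0.28 while Unc13c goes from -0.86 to -0.96.

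WT1 was the lowest of the 6 libraries for 5 of the 10 genes (Bsn, Pclo, Rims1, Rims2 and Unc13a) and the highest for Erc2 and Ppfia2. The summed level of the 10 genes was 136, 171 and 168 FPKM in WT1 to WT3 and 195, 190 and 172 FPKM in KO1 to KO3. In bulk tissue, fewer cells of a type and less RNA per cell cannot be told apart. The summed level of 10 general neuronal markers was 1276 to 1351 FPKM in WT and 1374 to 1501 FPKM in KO, with 5 of the 10 higher and 5 lower on average. Those higher in every KO library were Snap25 and Syt1, which are also among the release genes described below, and Map2 was lower in every one. Snap25 and Syt1 averaged 293 and 169 FPKM in WT and 411 and 240 FPKM in KO, so the rise of the sum is not a measure independent of the release genes. The summed level of 9 inhibitory neuron markers was 761 to 919 FPKM in WT and 755 to 781 FPKM in KO, with 5 higher and 4 lower. In this list 2 lay higher in every KO library, among them Gad1 (48.5 FPKM in WT and 55.5 in KO). Another 2 lay lower, among them Slc32a1 (49.5 and 38.2). Of all tested genes, 11.9% lay higher in this way and 10.1% lower. The part of these neurons in the levels of the 10 genes was not tested.

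Fold change followed gene length across the table, and the 10 genes are long. Their lengths in the deposited table run from 7362 bases (Rims1) to 22746 bases (Unc13b), against a median of 4171 bases for all tested genes. The median log2 fold change was -0.25 for tested protein-coding genes shorter than 1000 bases, -0.06 from 2000 to 4000, 0.11 from 7000 to 12000 and 0.17 from 12000 to 24000. Over the 10 genes the median was 0.16 (0.10 without KO1), with 8 positive and 2 negative values. Over the 2533 other protein-coding genes in the same span of lengths it was 0.13, with 75.4% positive, and over all tested genes 0.01. All 3 KO values lay above all 3 WT values for 25.1% of those 2533 genes and below for 3.00%, against 2 and 1 of the 10. The median deviation of those genes from their own means was -0.13 in WT1, -0.06 in WT3 and between 0.04 and 0.09 in the KO libraries, so the trend moved with the groups and with WT1.

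With the length trend removed in each library, the median over the 10 genes was -0.02, and 4 were positive and 6 negative. Unc13a, Unc13b, Erc1 and Ppfia2 changed sign under this step, to -0.04, -0.08, -0.01 and -0.04. Rims2 (0.31), Pclo (0.28), Bsn (0.25) and Rims1 (0.22) stayed positive, and Unc13c went to -0.96. The direction of Unc13c was thus opposite to the median of genes of its length, and 3.87% of protein-coding genes of 7000 to 12000 bases shared its order, with every KO library under every WT library.

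**Figure D4:**
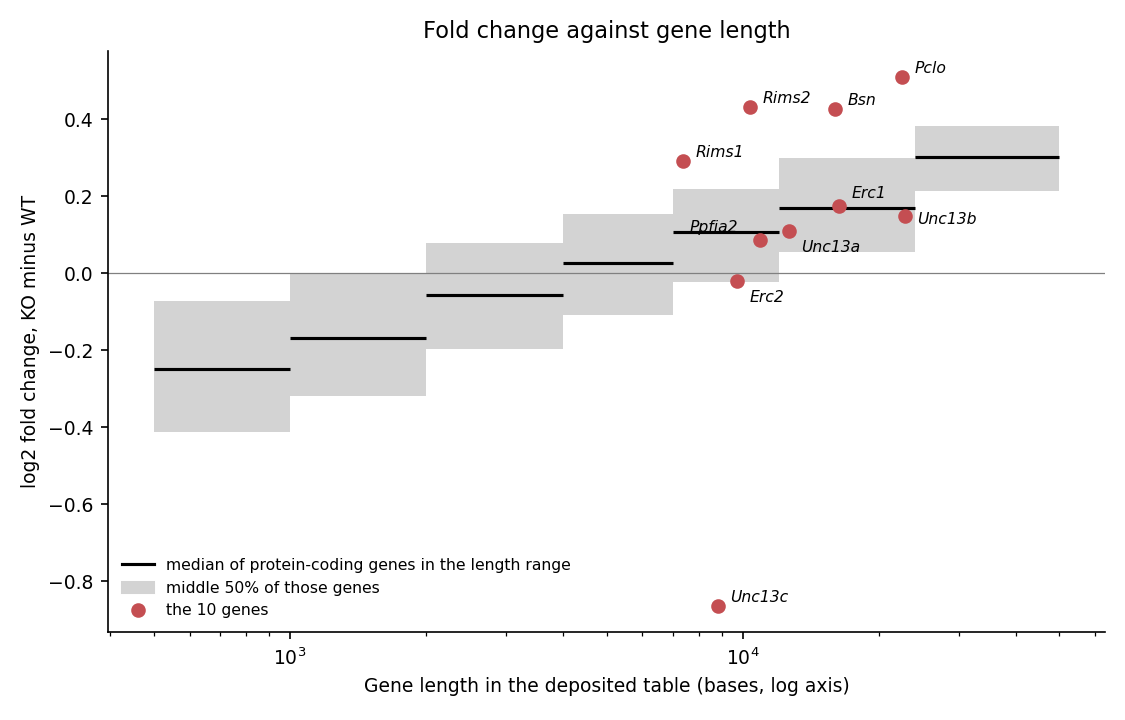
Log2 fold change, KO minus WT (y axis), against gene length in bases (x axis, log scale); red points are the 10 genes, black lines the median and grey boxes the middle 50% of tested protein-coding genes in each length range, the outermost ranges being drawn to a fixed edge. The medians climb from -0.25 to 0.30 with length; Pclo, Bsn, Rims1 and Rims2 lie above the grey boxes, and Unc13c lies far below at -0.86.

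Other genes of the release machinery were read from 7 lists of 76 genes, 73 of which were tested. None passed the threshold (0 of 73), 51 had a positive and 22 a negative log2 fold change, and the median was 0.13, or 0.04 with the length trend removed and 0.076 without KO1. The groups did not overlap in 15 genes that lay higher in KO (20.5%, against 11.9% of all tested genes) and in 2 that lay lower (2.74%, against 10.1%). These genes are long too, with a median of 7899 bases, and among protein-coding genes of 7000 to 12000 bases the corresponding shares were 22.1% and 3.87%. A positive log2 fold change was found in 51.3% of all tested genes and in 70.9% of protein-coding genes of that length. The medians and counts of the single lists, given without removal of the length trend, differed. Priming factors related to Munc13 (8 tested, 7 positive) had a median of 0.36, and small RIMs with RIM-binding proteins (4 tested, 4 positive) 0.34, which was 0.16 without WT1 and 0.51 without KO3. SNARE and fusion genes (16 tested, 14 positive) had 0.19 (0.30 without WT2 and 0.12 without KO1), Rab3 and its effectors (11 tested, 8 positive) 0.10, and scaffold partners (20 tested, 12 positive) 0.09. Calcium channel subunits (10 tested, 5 positive) had 0.01, and the other liprins (4 tested, 1 positive) -0.07.

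Among the priming factors, Cadps, which encodes a protein that readies dense-core vesicles, was at 14.9, 18.2 and 14.8 FPKM in WT1 to WT3 and 21.1, 23.6 and 21.0 FPKM in KO1 to KO3. Dmxl2, a rabconnectin, averaged 18.2 ± 2.20 in WT and 24.3 ± 1.53 FPKM in KO, and Stxbp5l, a tomosyn that competes for SNARE binding, 3.19 ± 1.28 and 5.77 ± 0.56. All 3, named for having the smallest p of the 8 tested, lay higher in every KO library without passing (limma adjusted p = 0.302, 0.302 and 0.303). Baiap3, a Munc13 relative of dense-core vesicle trafficking chosen after its values were seen, was at 20.6, 11.0 and 1.53 FPKM in WT1 to WT3 and 0.965, 0.654 and 2.52 FPKM in KO1 to KO3. WT1 and WT2 stood far above the other 4 libraries, and WT3 was below KO3. The summed level of 5 central amygdala markers was likewise 35.4 and 27.4 FPKM in WT1 and WT2 and 11.0 to 14.3 FPKM in the others, although Crh, a marker of that list, was lowest in WT1. The part of central amygdala tissue in the level of Baiap3 was not tested. Unc13d, the Munc13 gene of blood cells, was at 0.136 to 0.400 FPKM and below the filter.

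Rims3 encodes a short RIM that keeps only the last C2 domain. It was at 15.9, 39.9 and 38.8 FPKM in WT1 to WT3 and 50.8, 47.9 and 43.0 FPKM in KO1 to KO3, with WT1 far below the rest (log2 fold change 0.67, SE 0.33, limma adjusted p = 0.384, and 0.26 without WT1). Its relative Rims4 was at 19.8 ± 6.76 and 24.9 ± 4.08 FPKM, and Rimbp2, which couples RIM to calcium channels, at 15.3 ± 1.25 and 19.6 ± 5.23, both with overlap. The log2 fold change of Rims4, 0.36, was 0.072 without WT1, and that of Rimbp2, 0.31, was 0.13 without KO1.

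Of the scaffold partners, Lin7a and Cask belong to the adaptor complex that bridges neurexins to the release site. Lin7a averaged 5.17 ± 1.49 in WT and 8.44 ± 1.06 FPKM in KO, and Cask 7.49 ± 0.53 and 9.34 ± 0.40. Ptprd, a receptor phosphatase that binds liprin-alpha, was at 6.25 ± 1.60 and 9.71 ± 0.99. Each of the 3 lay higher in all KO libraries, with a limma adjusted p of 0.303. They were named for having the smallest p of the 20 scaffold partners tested, and no other gene of that list lay higher in this way. The liprins of smallest p were Ppfia4 (11.6 ± 1.53 in WT and 9.73 ± 1.80 in KO), Ppfibp1 (3.51 ± 0.50 and 3.21 ± 0.10) and Ppfia1 (3.06 ± 0.29 and 2.91 ± 0.27), all with overlapping groups. The log2 fold change of Ppfia4, -0.23, was -0.37 without KO1 and -0.15 without WT2 or KO3.

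Among the calcium channel subunits, Cacnb4, an intracellular beta subunit, was at 11.1, 26.2 and 30.1 FPKM in WT1 to WT3 and 37.0, 36.2 and 39.9 FPKM in KO1 to KO3. The KO values lay above WT, and WT1 stood apart below the other WT libraries (log2 fold change 0.83, SE 0.33, limma adjusted p = 0.336, and 0.41 without WT1). Cacna1a, the pore of P/Q-type channels, was at 14.5 ± 2.99 and 19.2 ± 2.58 FPKM and Cacna2d2, an auxiliary subunit, at 5.09 ± 0.63 and 4.21 ± 0.55, both with overlap, and without WT1 the log2 fold change of Cacna1a went from 0.39 to 0.22 and that of Cacna2d2 from -0.22 to -0.14. Of the Rab3 list, the effector Rph3a was at 73.0 ± 18.4 and 91.9 ± 8.84 FPKM with overlap, and its log2 fold change of 0.36 was 0.14 without WT1. Rab27b, at 3.91 ± 0.28 and 4.44 ± 0.22, lay higher in all KO libraries and Rab3il1, a Rab exchange factor, at 2.07 ± 0.25 and 1.66 ± 0.06, lower.

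Of the SNARE and fusion genes, the calcium sensor Syt1 was at 127, 208 and 172 FPKM in WT1 to WT3 and 265, 243 and 212 FPKM in KO1 to KO3, without overlap (log2 fold change 0.53, SE 0.19, limma adjusted p = 0.321, and 0.34 without WT1). Snap25, a membrane SNARE, was at 252, 295 and 331 FPKM in WT and 401, 420 and 412 FPKM in KO. Doc2b, a high-affinity calcium sensor that also binds Munc13, was at 19.2, 12.2 and 11.2 FPKM in WT and 3.55, 2.99 and 5.96 FPKM in KO. With Rab3il1 it made up the 2 listed genes that lay lower in all KO libraries. Its highest KO value, like that of Unc13c, was in KO3.

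**Figure D5:**
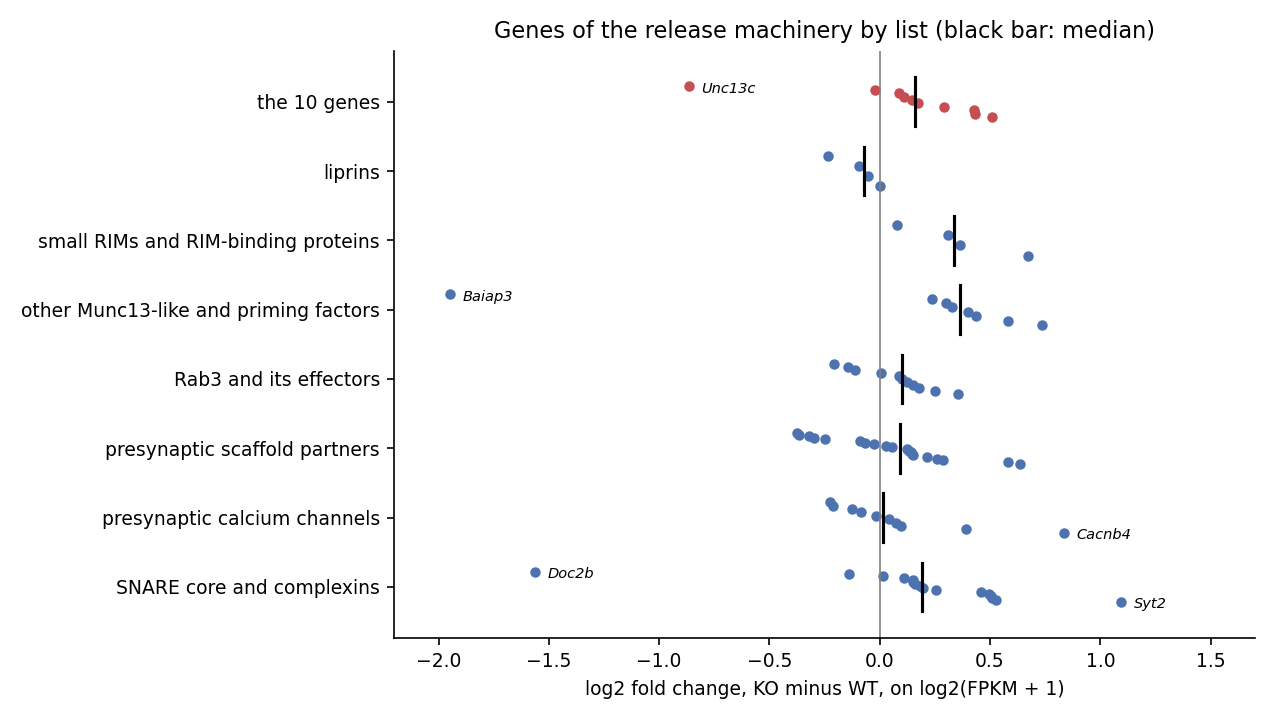
Log2 fold change, KO minus WT (x axis), of each tested gene of the 10 described here (red) and of the 7 lists of release genes (blue, 1 list per row); black bars are medians, from -0.07 for the other liprins to 0.36 for priming factors. Unc13c, Baiap3 and Doc2b are set apart on the lower side.

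For the genes most like Pclo and Unc13c in pattern, 7159 protein-coding genes of at least 5 FPKM were compared over the 6 libraries by the root mean square difference of log2 values, each centred on its own mean. Nearest to Pclo were Dpy19l1 (0.025), Aak1 (0.031) and St8sia1 (0.035), where the root mean square of Pclo about its own mean was 0.29. Dpy19l1 averaged 15.6 ± 2.44 in WT and 22.4 ± 1.96 FPKM in KO. Nearest to Unc13c were Hes5 (0.18), S100a13 (0.18) and Nrsn2 (0.19), where Unc13c itself had 0.50, so its neighbours were less close. Hes5 was at 8.14 ± 2.69 and 4.42 ± 0.89 FPKM, and Nrsn2 at 71.0 ± 13.8 and 41.2 ± 9.15. Among the 10 genes the closest patterns were Unc13b with Erc1 (0.11) and Pclo with Rims2 (0.13).

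None of the marker genes of other cells passed the threshold (0 in each list). All 5 markers of oligodendrocyte precursors had a negative log2 fold change, 4 of them without overlap, and their summed level was 31.0 to 46.3 FPKM in WT and 20.2 to 25.4 FPKM in KO. All 6 microglial markers were negative, 3 without overlap (summed level 122.5 to 165 FPKM in WT and 90.4 to 119 in KO). Of 7 astrocyte markers 6 were negative, 1 of them without overlap, with sums that overlapped (415 to 559 and 386 to 456 FPKM). All 5 meningeal markers were negative, 1 without overlap (26.7 to 56.5 and 10.1 to 26.5 FPKM), and all 6 oligodendrocyte markers were positive with a median of 0.46 and overlapping sums (227 to 673 and 463 to 657 FPKM). For comparison, 10.1% of all tested genes had KO values wholly below the WT values. That share was 26.0% for protein-coding genes of 1000 to 2000 bases and 3.87% from 7000 to 12000 bases. The markers lower without overlap include the short C1qa (1040 bases) and C1ql1 (1473) and the long Pdgfra (10024) and Cspg4 (11931). The marker counts are given without removal of the length trend. The part of the cells of these lists in the levels of the 10 genes was not tested.

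Of 6 markers of cerebellar granule cells, the cells best known for Unc13c, 3 were near 0: Gabra6 was at 0 to 0.025 FPKM, Cbln3 at 0.033 to 0.18 and Fat2 at 0 to 0.044. Neurod1 (4.40 to 7.11 FPKM), Zic1 (1.81 to 4.71) and Cbln1 (1.42 to 5.10), which other neurons also express, made up nearly all of a summed level of 11.9 to 14.6 FPKM in WT and 7.82 to 14.5 FPKM in KO. These 3 were the ones tested, and all had a negative log2 fold change (median -0.14) with overlapping groups. The part of such cells in the level of Unc13c was not tested. The 8 striatal markers were high in WT3 and KO3. Without both libraries numbered 3 the log2 fold change of Unc13c was -0.97, that of Pclo 0.55 and that of Rims2 0.53. Other markers still differed between the libraries left. The central amygdala sum was 35.4 and 27.4 FPKM in WT1 and WT2 and 13.3 and 11.1 FPKM in KO1 and KO2. The part of striatal or other cells in these fold changes was not tested.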

How the data were processed

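The authors deposited 1 table of gene-level FPKM for 6 RNA-seq libraries, which also lists each gene's name, coordinates, length and biotype, per the file headers. Libraries came from the SMARTER mRNA kit, per the labels' protocols. The builds GRCm38 and mm10 are named in the submitters' processing notes; the aligner and counter, and whether strand was used, stand in none of the sources used here. FPKM times length was a whole multiple of 1 step per library for 100% of values (tolerance 0.01 reads), which gave the reads. The library sizes implied were 0.964 to 1.05 times the summed reads.

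Genes averaging at least 1 FPKM were tested on log2(FPKM + 1) with limma 3.58.1 in R 4.3.3 (KO minus WT, variance trend, two-sided), adjusted by Benjamini-Hochberg over all 13087 genes; the fit was tested on simulated data. Shares were compared by exact permutation (scipy 1.17.1). The genes and lists were chosen with earlier results of these data known. Named genes were the 10, Cntnap4, the 3 of smallest p in each release list, and the 3 nearest in pattern to Pclo and Unc13c. The 18 alternatives covered the pseudocount, filter, scaling, variance model, voom on the reads, length trend, replicate block and left-out libraries. The main fit and the share tests did not pair the libraries, since the labels do not say that equal numbers mark pairs. Deviations from group means correlated across genes between libraries of the same number at 0.175, 0.145 and 0.330 for numbers 1 to 3. WT2 correlated more with KO1 (0.283). Pairing by number was used only in the alternatives with the replicate block. Genes overlapping the 10 in position had few reads except Colgalt1, at a mean of 865 reads per library, on the strand opposite Unc13a.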

Additional observations from a re-analysis of the deposited data

How the results depend on the processing

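None of the 10 genes passed under any of the 18 alternatives. The number of genes past the threshold over the whole table, 1 in the comparison as reported, was 0 with no filter on low values, with quantile normalization, without a variance trend, after removal of the length trend, with the replicate block and with block and length step together. With 1 library left out it ranged from 0 to 9, the 9 being without WT3. The replicate block changed no other call. The median log2 fold change of the 10 genes, 0.16, was -0.022 with the length trend removed, with or without the replicate block, and 0.10 to 0.23 with 1 library left out. Among the 10 genes, directions turned for Unc13a, Unc13b, Erc1, Erc2 and Ppfia2, at 0.11, 0.15, 0.17, -0.02 and 0.09 in the main fit. With the length trend removed, with or without the block, Unc13a was at -0.036, Unc13b at -0.082, Erc1 at -0.0074 and Ppfia2 at -0.037. Ppfia2 was at -0.066 without both libraries numbered 3. With 1 library left out, Unc13a ranged from -0.042 to 0.20, Erc2 from -0.11 to 0.083, Ppfia2 from -0.099 to 0.25 and Ppfia1 from -0.11 to 0.00073. The difference in the share of Bsn between KO and WT, -1.55 percentage points, ranged from -3.46 to 0.36, the latter without KO3. Pclo, Rims1, Rims2, Bsn and Unc13c kept their direction in all 18. Between 342 and 15535 reads stood behind each value of the 10 genes, and 3 libraries per group limit the precision.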
